A study of Mus musculus with 32 samples.

Results

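The comparison is between mouse regulatory T cells (Tregs) cultured for 18 h with an agonist of TNFR2 and Tregs cultured for 18 h with an agonist of DR3. It takes the 3 libraries labelled with the TNFR2 agonist and the 3 labelled with the DR3 agonist at that time, 6 of the series' 32 libraries, across all genes. Both agonists were given at 12 ng/ml: TNC-sc(mu)TNF80 (STAR2) for TNFR2, and TL1A for DR3. Equal mass need not be equal numbers of molecules, and activity per molecule is not given in the labels. Cells of all groups used here were Foxp3/GFP+ Tregs purified from C57BL/6 mice with a Foxp3-IRES-GFP knock-in, 2.5 months old. All were grown on plates coated with antibodies to CD3 and CD28, in medium with IL-2 at 10 ng/ml, so that both agonists acted on top of that stimulation. Set beside them are 3 control libraries at 18 h (the same culture with no agonist) and, as 6 other libraries, the same agonists at 36 h, also 3 each. The labels do not say whether libraries of a group came from separate mice or cultures, so p-values measure the spread between these libraries, which may be technical.

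TNFR2 and DR3 are both receptors of the tumour necrosis factor (TNF) superfamily that add a costimulatory signal to T cells, and Tregs are known to carry both. TNFR2 binds TNF, has no death domain and recruits TRAF adaptors directly; DR3 binds TL1A and carries a death domain, through which it recruits TRADD and then TRAF proteins. Both pathways lead to NF-kB, a family of transcription factors held back by IkB proteins, several of which are themselves NF-kB targets. The question here was which transcripts differ between the agonists when both are given to Tregs activated in the same way.

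Total expected counts, the authors' estimate of reads per gene, summed to 15851153 to 21520225 per TNFR2 agonist library, 13634395 to 18010943 per DR3 agonist library and 17662427 to 20004351 per control library. The libraries carried Treg transcripts, with Foxp3 at 626 to 662 CPM (counts per 1000000, scaled by edgeR's TMM factors) with the TNFR2 agonist and 585 to 639 CPM with the DR3 agonist. On the leading principal component of the 6 libraries, with 29.0% of the variance, TNFR2 replicate 2 stood farthest out, at 37.0, against 1.01 and 4.34 for the other TNFR2 replicates and -15.4 to -11.8 for the DR3 replicates. Gm42418, a transcript in a ribosomal RNA repeat, took 1407 to 11857 CPM in the TNFR2 agonist libraries and 3928 to 6853 CPM in the DR3 agonist libraries. This level is not scaled by TMM, nor are the summed marker lists below or the single markers given with them as ranges or limits. Mitochondrially encoded transcripts took 1.45% to 1.75% of counts with the TNFR2 agonist and 1.54% to 2.33% with the DR3 agonist. Of the 11 tested genes of that kind edgeR called 0, with 5 at an unadjusted p below 0.05 and 0 calls by DESeq2. All 11 fold changes were negative, with a median log2 fold change of -0.41, and 4 of these genes were called lower without DR3 replicate 3. In bulk RNA, fewer cells that express a gene and less of its RNA per cell cannot be told apart.

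The agonists gave close profiles, with many small differences and few large ones. Of 14313 genes tested with edgeR's quasi-likelihood test, 536 (3.74%) were called, that is, had an adjusted p below 0.05. Of these, 271 (1.89%) were higher and 265 (1.85%) were lower with the TNFR2 agonist than with the DR3 agonist. These shares are the ones to set beside the counts of called list members below. The median log2 fold change was 0.22 among genes called higher and -0.25 among genes called lower, against 0.0018 over all genes tested. Only 12 genes called higher and 10 called lower reached a 2-fold difference. The higher group mean was under 5 CPM for 14 genes called higher and 19 called lower. At 5 CPM or more, with no overlap and predicted genes left out, no gene called higher reached 2-fold. Scin was the largest of these, at a log2 fold change of 0.97. Under the same limits, Il9, Il2 and Xcl1 were the genes called lower that reached 2-fold. The 3 and 3 libraries did not overlap for 250 of the 271 and 225 of the 265, while 15.5% of all genes tested showed no overlap. The control mean lay below both agonist means for 231 of the 271 and above both for 231 of the 265. Over all genes tested it lay below both for 37.99% and above both for 42.05%. A fit of the 6 libraries alone, without the spread estimate from the rest of the series, called 183 genes, 182 of them among the 536. Leaving out a replicate of the 6 gave 379 calls without TNFR2 replicate 1, 292 without TNFR2 replicate 2, 847 without TNFR2 replicate 3, 342 without DR3 replicate 1, 323 without DR3 replicate 2 and 863 without DR3 replicate 3.

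**Figure D1:**
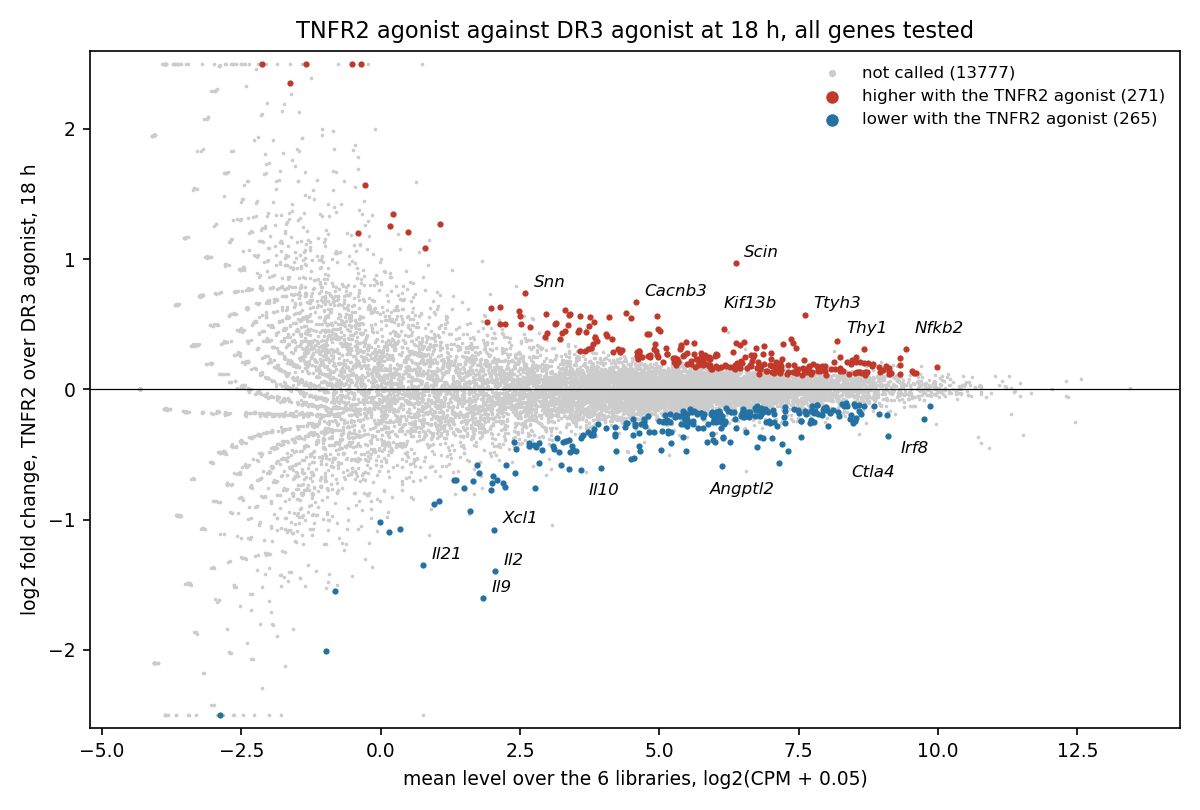
Fold change of each of the 14313 genes tested, as the log2 ratio of the TNFR2 agonist over the DR3 agonist at 18 h, against its mean level over the 6 libraries on a log2 scale of CPM with 0.05 added. The 271 genes called higher are red and the 265 called lower are blue, and points beyond the axis are drawn at its edge. Most called genes lie within 1 log2 unit of zero, and Scin is the red point that stands out among well expressed genes.

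The agonists' own receptors are taken up before the other families. Tnfrsf1b, which encodes TNFR2 (chromosome 4, 145213463 to 145246870 on mm10), had 369, 372 and 356 CPM with the TNFR2 agonist, 373, 399 and 422 CPM with the DR3 agonist and 507, 508 and 501 CPM in the control. Its log2 fold change, given here and below as estimate ± standard error from edgeR for 3 against 3 libraries, was -0.12 ± 0.035 (adjusted p = 0.034), and every agonist library lay below every control library. The call was lost without TNFR2 replicate 1, TNFR2 replicate 2, TNFR2 replicate 3, DR3 replicate 2 or DR3 replicate 3 (adjusted p 0.0581 to 0.248). Tnfrsf25, which encodes DR3 (chromosome 4, 152115934 to 152120119 on mm10), had 37.2, 37.4 and 42.4 CPM with the TNFR2 agonist, 35.4, 42.2 and 39.7 CPM with the DR3 agonist and 39.4, 38.4 and 38.4 CPM in the control. These ranges overlap, and the log2 fold change was -0.0065 ± 0.066 (edgeR adjusted p = 0.986). Per length, in TPM (transcripts per 1000000) as the authors deposited them, Tnfrsf1b stood at 162 to 188 and Tnfrsf25 at 48.9 to 68.5 across the 6 agonist libraries.

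Among TNF family ligands, the genes for the natural ligands were not called. Tnf had 103, 96.6 and 99.9 CPM with the TNFR2 agonist and 105, 107 and 111 CPM with the DR3 agonist (log2 fold change -0.10 ± 0.045, edgeR adjusted p = 0.215). Lta, the gene for lymphotoxin alpha, another ligand of TNFR2, differed by a log2 fold change of -0.10 ± 0.034 (edgeR adjusted p = 0.0972), and Tnfsf15, the gene for TL1A, was low in both groups, at 2.59 to 3.16 CPM with the TNFR2 agonist and 1.84 to 3.25 CPM with the DR3 agonist. Of 14 ligand genes tested (14.3% called, against 3.74% of all genes tested), 1 was called lower and 1 higher. Tnfsf11, which encodes RANKL, was lower with the TNFR2 agonist, at 88.2, 88.6 and 91.8 CPM against 106, 104 and 98.1 CPM with the DR3 agonist and 80.2, 89.8 and 87.8 CPM in the control. For Tnfsf11 the log2 fold change was -0.20 ± 0.043 (edgeR adjusted p = 0.00174). Here the TNFR2 agonist libraries overlapped the control, and every DR3 agonist library lay above both. Without TNFR2 replicate 3 or DR3 replicate 3, 2 ligand genes were called lower. Tnfsf8, which encodes CD30 ligand, was higher with the TNFR2 agonist (log2 fold change 0.16 ± 0.041, edgeR adjusted p = 0.0121), a call lost without TNFR2 replicate 1, TNFR2 replicate 3 or DR3 replicate 1 (adjusted p 0.0588 to 0.134).

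Of 20 TNF receptor family genes tested, 2 were called higher and 1, Tnfrsf1b, lower. That is 15% called, against 3.74% of all genes tested. Fas, which encodes a death receptor induced by NF-kB, had 39.5, 36.5 and 39.5 CPM with the TNFR2 agonist, 34.4, 28.9 and 29.5 CPM with the DR3 agonist and 18.5, 19.1 and 17.5 CPM in the control (log2 fold change 0.32 ± 0.060, edgeR adjusted p = 0.000428). The 3 groups did not overlap, with the TNFR2 agonist highest and the control lowest. Tnfrsf8, which encodes CD30, differed by a log2 fold change of 0.15 ± 0.038 (edgeR adjusted p = 0.0146) and lost its call without TNFR2 replicate 1, TNFR2 replicate 2, DR3 replicate 1 or DR3 replicate 2 (adjusted p 0.0774 to 0.153). Tnfrsf9, the 4-1BB gene, was not called at 18 h, at 522, 463 and 518 CPM with the TNFR2 agonist and 525, 528 and 532 CPM with the DR3 agonist (edgeR adjusted p = 0.283).

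Some genes of the noncanonical NF-kB branch and of NF-kB feedback were called higher with the TNFR2 agonist. Of 5 NF-kB subunit genes tested, Nfkb2 and Relb were called higher and none lower, and all 5 fold changes were positive, against 7248 of 14313 over all genes tested. Nfkb2, which encodes p100, the precursor of p52, had 753, 785 and 749 CPM with the TNFR2 agonist, 597, 614 and 637 CPM with the DR3 agonist and 376, 368 and 376 CPM in the control. The 3 groups did not overlap, and the log2 fold change between the agonists was 0.31 ± 0.034 (edgeR adjusted p = 1.05e-08). Relb, whose protein pairs with p52, had 118, 119.5 and 115 CPM with the TNFR2 agonist, 104, 102 and 110.3 CPM with the DR3 agonist and 75.2, 73.7 and 74.2 CPM in the control. For Relb the log2 fold change was 0.16 ± 0.044 (edgeR adjusted p = 0.024). These groups did not overlap either, but the call was lost without TNFR2 replicate 1, TNFR2 replicate 2, DR3 replicate 1 or DR3 replicate 2 (adjusted p 0.0783 to 0.205). The subunits of the canonical branch were not called: Nfkb1 differed by a log2 fold change of 0.031 ± 0.032 (adjusted p = 0.706), Rela 0.086 ± 0.052 (adjusted p = 0.44) and Rel 0.0084 ± 0.043 (adjusted p = 0.959), all from edgeR.

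Of 13 genes for NF-kB inhibitors and feedback proteins tested, 5 were called higher and none lower, 9 fold changes were positive, and the median log2 fold change was 0.14. Nfkbia, which encodes IkB alpha, had 471, 459 and 439.9 CPM with the TNFR2 agonist, 385, 393 and 411 CPM with the DR3 agonist and 254, 254 and 256 CPM in the control (log2 fold change 0.20 ± 0.035, edgeR adjusted p = 0.000102). Nfkbie, which encodes IkB epsilon, had 64.6, 65.0 and 63.6 CPM with the TNFR2 agonist, 53.8, 53.1 and 56.4 CPM with the DR3 agonist and 33.2, 33.6 and 32.9 CPM in the control. For Nfkbie the log2 fold change was 0.24 ± 0.049 (edgeR adjusted p = 0.001). Bcl3, an IkB family member that acts in the nucleus with p52 and p50, had 67.2, 65.2 and 63.1 CPM with the TNFR2 agonist, 54.2, 54.3 and 58.0 CPM with the DR3 agonist and 42.7, 39.7 and 37.9 CPM in the control (log2 fold change 0.23 ± 0.049, edgeR adjusted p = 0.0015). For these 3 genes every TNFR2 agonist library was above every DR3 agonist library, and every DR3 agonist library above every control library. The calls of Tnip1, whose protein binds the ubiquitin-editing enzyme A20, and Otulin, a deubiquitinase of linear chains, were fragile. Tnip1 (log2 fold change 0.14 ± 0.040, edgeR adjusted p = 0.0354) lost its call without TNFR2 replicate 1, TNFR2 replicate 2, DR3 replicate 1 or DR3 replicate 2 (adjusted p 0.0515 to 0.442). Otulin (log2 fold change 0.18 ± 0.055, edgeR adjusted p = 0.0489) lost its call without TNFR2 replicate 2, DR3 replicate 1 or DR3 replicate 2 (adjusted p 0.227 to 0.409). Tnfaip3, which encodes A20, had 178, 177 and 192 CPM with the TNFR2 agonist and 166, 181 and 186 CPM with the DR3 agonist, ranges that overlap, against 118, 121 and 118 CPM in the control. The count of 5 members called higher fell to 3 without TNFR2 replicate 2, without DR3 replicate 1 or without DR3 replicate 2. Without DR3 replicate 1, 1 member was also called lower. At 36 h, 5 members were called higher and 1 lower. With all libraries at 18 h, 38.5% of the list was called, against 3.74% of all genes tested.

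The promoters of Nfkb2, Nfkbia, Nfkbie and Bcl3 are shown because these genes were called higher in every fit that left out a library and NF-kB is known to act on several genes of this kind. RefSeq promoter windows on GRCm38.p6 run from 250 bases before to 50 bases after a gene's start, 300 bases in all. They were searched on both strands for GGG and TTCC with either 3 or 2 bases of any kind between them, letters that NF-kB sites often hold. Matches to these 2 motifs can overlap each other. Windows were found for 401 of the 536 called genes. At least 1 match stood in the windows of 35 of 202 genes called higher (17.3%), 17 of 199 called lower (8.54%) and 1264 of 9156 tested genes with a window (13.8%), and in 9.74% of all 32851 windows. A match is a description of the letters, not evidence of binding. In the lines that follow, 5′ to 3′ along the gene's strand, capitals mark the matches. Nfkb2 has 3 windows, of which the window farthest upstream is shown (chr19:46304487-46304786, plus strand).
Nfkb2: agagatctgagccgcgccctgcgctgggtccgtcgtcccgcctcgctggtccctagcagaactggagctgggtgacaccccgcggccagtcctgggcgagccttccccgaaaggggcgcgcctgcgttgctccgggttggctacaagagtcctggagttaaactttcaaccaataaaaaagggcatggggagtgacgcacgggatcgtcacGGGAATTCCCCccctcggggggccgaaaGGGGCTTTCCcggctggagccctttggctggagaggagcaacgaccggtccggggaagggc
Nfkbia (chr12:55492598-55492897, minus strand): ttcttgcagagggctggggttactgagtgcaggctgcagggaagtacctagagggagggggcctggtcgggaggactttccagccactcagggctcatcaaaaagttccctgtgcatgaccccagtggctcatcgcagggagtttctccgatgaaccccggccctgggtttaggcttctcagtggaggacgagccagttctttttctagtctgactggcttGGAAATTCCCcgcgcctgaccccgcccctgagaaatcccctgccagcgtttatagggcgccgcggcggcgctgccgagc
Nfkbie (chr17:45555450-45555749, plus strand): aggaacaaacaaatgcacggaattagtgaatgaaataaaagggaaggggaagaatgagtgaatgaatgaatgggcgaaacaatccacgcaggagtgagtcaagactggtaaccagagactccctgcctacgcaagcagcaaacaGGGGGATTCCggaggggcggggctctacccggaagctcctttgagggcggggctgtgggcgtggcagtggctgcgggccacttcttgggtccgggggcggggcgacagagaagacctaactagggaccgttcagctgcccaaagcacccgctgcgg
Bcl3 (chr7:19822706-19823005, minus strand): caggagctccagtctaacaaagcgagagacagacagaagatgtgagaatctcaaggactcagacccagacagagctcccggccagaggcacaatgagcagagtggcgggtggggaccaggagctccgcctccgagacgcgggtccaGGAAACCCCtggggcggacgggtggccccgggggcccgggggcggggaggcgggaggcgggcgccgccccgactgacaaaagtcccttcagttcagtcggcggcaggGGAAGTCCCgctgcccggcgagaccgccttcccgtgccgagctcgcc
In Nfkb2 the matches begin at base -39 and at base -11 from the start, in Nfkbia at -29, in Nfkbie at -106 and in Bcl3 at -104 and 3. Of the genes of the same lists whose calls were fragile, the window of Tnip1 holds matches that begin at base -58 and that of Otulin holds none, while Relb was not matched to a window. No match was found in the windows of Traf1, Scin, Cacnb3 and Zbtb46, which were also higher with the TNFR2 agonist.

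Among signalling adaptors upstream of NF-kB, the share called was near that over all genes tested. Of 21 genes for TRAF, cIAP and kinase adaptors tested, 1 (4.76%) was called higher and none lower, with a median log2 fold change of 0.01. Over all genes tested, 3.74% were called. That gene was Traf1, which encodes an adaptor that binds TNFR2 together with TRAF2 and is itself induced by NF-kB. It had 263, 275 and 254 CPM with the TNFR2 agonist, 237, 237 and 243 CPM with the DR3 agonist and 180.1, 174 and 174 CPM in the control. For Traf1 the log2 fold change was 0.14 ± 0.034 (edgeR adjusted p = 0.00608). The groups did not overlap, but the call was lost without TNFR2 replicate 2 or DR3 replicate 2 (adjusted p 0.051 to 0.115). Traf2 differed by a log2 fold change of 0.19 ± 0.058 (edgeR adjusted p = 0.0588) and Birc3, the cIAP2 gene, 0.11 ± 0.038 (edgeR adjusted p = 0.103). Traf2 would be called without TNFR2 replicate 3 (adjusted p = 0.0237) or DR3 replicate 3 (0.0231), and Birc3 without DR3 replicate 3 (0.0454). Leaving out DR3 replicate 3 gave 3 members called higher and 1 called lower.

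Some genes known from antigen-presenting cells, several of them NF-kB targets, were called higher with the TNFR2 agonist. Of 21 genes of antigen presentation and dendritic cells tested, 6 were called higher (Scin, Zbtb46, Cd83, Cd80, Relb and Ccl22) and none lower; 17 fold changes were positive, with a median log2 fold change of 0.20. Scin, which encodes the actin-severing protein scinderin (ENSMUSG00000002565, chromosome 12, 40059769 to 40134228 on mm10), had 111, 113 and 104 CPM with the TNFR2 agonist, 55.9, 51.0 and 60.8 CPM with the DR3 agonist and 11.1, 12.2 and 13.2 CPM in the control. Its log2 fold change of 0.97 ± 0.054 (edgeR adjusted p = 9.79e-18) had the smallest p of all genes called higher, and the groups lay far apart. Zbtb46, a zinc finger transcription factor known from classical dendritic cells, had 36.1, 35.2 and 39.5 CPM with the TNFR2 agonist, 24.2, 26.8 and 23.6 CPM with the DR3 agonist and 10.1, 10.6 and 11.4 CPM in the control (log2 fold change 0.57 ± 0.074, edgeR adjusted p = 4.63e-07). Cd83, whose product stabilises MHC class II and CD86 at the surface, had 127, 122 and 129 CPM with the TNFR2 agonist, 109, 109 and 113 CPM with the DR3 agonist and 68.7, 67.6 and 66.6 CPM in the control. For Cd83 the log2 fold change was 0.19 ± 0.037 (edgeR adjusted p = 0.00048). Cd80, a ligand of CD28 and CTLA-4, had 16.2, 16.1 and 17.2 CPM with the TNFR2 agonist, 14.0, 11.9 and 12.5 CPM with the DR3 agonist and 6.83, 6.73 and 7.52 CPM in the control (log2 fold change 0.37 ± 0.080, edgeR adjusted p = 0.00271), and its call was lost without DR3 replicate 2 (adjusted p = 0.0627). For these 4 genes the 3 groups did not overlap. Ccl22, a chemokine gene, was called (adjusted p = 0.00999) but rests on few reads. It had 1.98, 1.96 and 0.172 CPM with the TNFR2 agonist and 0.25, 0.0557 and 0 CPM with the DR3 agonist, the groups overlap, and the call was lost without TNFR2 replicate 1, TNFR2 replicate 2 or DR3 replicate 2 (adjusted p 0.0536 to 0.0789). Without DR3 replicate 2, 3 members of the list were called. With all libraries, 28.6% of the list was called, against 3.74% of all genes tested.

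Among defining markers of dendritic and myeloid cells, Cst3 made up most of the signal. The summed level of the list was 36.4 to 39.1 CPM with the TNFR2 agonist and 36.5 to 42.0 CPM with the DR3 agonist, while S100a8, S100a9, Clec9a and Siglech were at 0 in all 6 libraries. The promoter window of Scin, the gene with the smallest p, is shown for comparison with those above, and holds no match to either motif.
Scin (chr12:40134179-40134478, minus strand): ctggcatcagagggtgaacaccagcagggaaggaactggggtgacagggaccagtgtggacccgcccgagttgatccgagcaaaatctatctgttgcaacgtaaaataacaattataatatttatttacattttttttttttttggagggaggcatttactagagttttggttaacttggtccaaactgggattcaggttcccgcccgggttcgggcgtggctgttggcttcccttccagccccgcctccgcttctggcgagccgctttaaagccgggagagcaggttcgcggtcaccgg

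Of 25 NF-kB target genes tested, a list that shares Cd83, Cd80 and Ccl22 with the one above, 7 were called higher and 1 lower. Gadd45b, a stress and NF-kB response gene, had 144, 135 and 144 CPM with the TNFR2 agonist, 110.1, 118 and 119.9 CPM with the DR3 agonist and 71.2, 69.5 and 72.4 CPM in the control (log2 fold change 0.28 ± 0.043, edgeR adjusted p = 1.29e-05). Irf5, a transcription factor of inflammatory gene programmes, had 50.1, 49.97 and 48.3 CPM with the TNFR2 agonist, 43.1, 38.5 and 41.2 CPM with the DR3 agonist and 22.3, 22.5 and 19.5 CPM in the control (log2 fold change 0.28 ± 0.052, edgeR adjusted p = 0.000384). In both genes the groups did not overlap. Irf1 (log2 fold change 0.11 ± 0.033, edgeR adjusted p = 0.0418) lost its call without TNFR2 replicate 1, TNFR2 replicate 2, DR3 replicate 1 or DR3 replicate 2 (adjusted p 0.103 to 0.273), and Bcl2l1, which encodes the survival protein BCL-xL (log2 fold change 0.14 ± 0.033, edgeR adjusted p = 0.00933), lost it without TNFR2 replicate 2, DR3 replicate 1 or DR3 replicate 2 (adjusted p 0.068 to 0.109). The gene called lower was Ebi3, a subunit of IL-27 and IL-35, with 25.2, 23.5 and 20.7 CPM with the TNFR2 agonist, 29.3, 26.2 and 28.1 CPM with the DR3 agonist and 11.1, 12.7 and 11.7 CPM in the control. For Ebi3 the log2 fold change was -0.26 ± 0.076 (edgeR adjusted p = 0.0352). Both agonists lay above the control, but the difference between the agonists lost its call without TNFR2 replicate 2, TNFR2 replicate 3, DR3 replicate 1 or DR3 replicate 3 (adjusted p 0.0616 to 0.2). The count of 7 was 4 without TNFR2 replicate 2 and 3 without DR3 replicate 2. With all libraries, 32% of the list was called, against 3.74% of all genes tested.

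The other genes with the largest or most significant rises under the TNFR2 agonist came from several families. Cacnb3, a beta subunit of voltage-gated calcium channels, had 29.1, 28.1 and 30.4 CPM with the TNFR2 agonist, 18.2, 18.2 and 18.6 CPM with the DR3 agonist and 4.59, 3.75 and 4.20 CPM in the control (log2 fold change 0.67 ± 0.072, edgeR adjusted p = 3.76e-09). Thy1, the surface glycoprotein CD90, had 340.2, 336 and 314 CPM with the TNFR2 agonist, 253, 251 and 265 CPM with the DR3 agonist and 154, 157 and 169 CPM in the control. For Thy1 the log2 fold change was 0.37 ± 0.037 (edgeR adjusted p = 9.29e-10). In both, the DR3 agonist lay between the TNFR2 agonist and the control, with no overlap. Bhlhe40, a transcription factor of activated T cells, had 164, 173 and 163 CPM with the TNFR2 agonist, 132, 131 and 128 CPM with the DR3 agonist and 102, 94.8 and 100.5 CPM in the control (log2 fold change 0.35 ± 0.035, edgeR adjusted p = 7.91e-10). Kynu, an enzyme of tryptophan breakdown, had 17.2, 14.7 and 16.2 CPM with the TNFR2 agonist, 11.2, 10.97 and 10.7 CPM with the DR3 agonist and 5.93, 5.86 and 5.24 CPM in the control. For Kynu the log2 fold change was 0.56 ± 0.085 (edgeR adjusted p = 1.29e-05). These groups also kept apart in the same order. Ttyh3, a tweety family membrane protein (log2 fold change 0.57 ± 0.059), Slc35b4, a nucleotide sugar transporter (0.38 ± 0.035), Kif13b, a kinesin motor (0.46 ± 0.046), and Ncf1, a subunit of the phagocyte NADPH oxidase (0.36 ± 0.041), were called with edgeR adjusted p values of 1.89e-07, 7.84e-11, 7.91e-10 and 2.39e-08.

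Snn, which encodes stannin, a small membrane protein, was higher with the TNFR2 agonist while the DR3 agonist and control libraries overlapped. It had 7.45, 8.09 and 6.92 CPM with the TNFR2 agonist, 4.75, 3.84 and 4.94 CPM with the DR3 agonist and 4.53, 4.61 and 4.60 CPM in the control (log2 fold change 0.74 ± 0.12, edgeR adjusted p = 2.5e-05). With the TNFR2 agonist 31.1% of all genes tested were called against the control (15.8% higher, 15.3% lower), and with the DR3 agonist 19.6% (9.66% higher, 9.94% lower). Against that control, whose libraries both contrasts share, its log2 fold change was 0.70 with the TNFR2 agonist (edgeR adjusted p = 1.85e-06) and -0.035 with the DR3 agonist (edgeR adjusted p = 0.888). Actn1, which encodes the actin crosslinker alpha-actinin, had 190.1, 196 and 183 CPM with the TNFR2 agonist, 143, 150.4 and 153 CPM with the DR3 agonist and 138, 138 and 136 CPM in the control. For Actn1 the log2 fold change was 0.35 ± 0.040 (edgeR adjusted p = 1.41e-08). Its groups did not overlap, with the control lowest. Against the same control its log2 fold change was 0.47 with the TNFR2 agonist and 0.11 with the DR3 agonist.

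Among cytokine genes the calls were lower with the TNFR2 agonist. Their share called was 22.7%, against 3.74% of all genes tested. Of 22 cytokine genes tested, 5 were called lower with the TNFR2 agonist than with the DR3 agonist (Il9, Il2, Il21, Il10 and Ebi3) and none higher, with a median log2 fold change of -0.27. Il9, a cytokine made by several helper T cell types and by some Tregs (ENSMUSG00000021538, chromosome 13, 56479277 to 56482246 on mm10), had 1.51, 1.96 and 1.77 CPM with the TNFR2 agonist, 4.88, 4.57 and 6.48 CPM with the DR3 agonist and 0.224, 0.326 and 0.247 CPM in the control. These levels are low, from 32, 31 and 31 counts with the TNFR2 agonist, 78, 82 and 88 counts with the DR3 agonist and 4, 6 and 5 counts in the control, but the 3 groups did not overlap (log2 fold change -1.60 ± 0.20, edgeR adjusted p = 1.63e-07). Il2, the growth factor of T cells whose expression Foxp3 restrains, had 1.51, 3.10 and 2.29 CPM with the TNFR2 agonist, 5.88, 5.84 and 5.89 CPM with the DR3 agonist and 2.29, 2.93 and 3.41 CPM in the control (log2 fold change -1.40 ± 0.19, edgeR adjusted p = 1.04e-06). Every DR3 agonist library lay above all others, while the TNFR2 agonist and control libraries overlapped. Il21, a cytokine of follicular and other helper T cells, had 0.895, 1.01 and 0.858 CPM with the TNFR2 agonist, 1.94, 2.23 and 2.95 CPM with the DR3 agonist and 1.12, 0.434 and 0.94 CPM in the control (log2 fold change -1.35 ± 0.29, edgeR adjusted p = 0.00223), with the groups placed alike. Il10, a cytokine through which Tregs suppress, was at 9.95, 12.3 and 14.5 CPM with the TNFR2 agonist, 18.5, 17.9 and 19.0 CPM with the DR3 agonist and 29.6, 34.4 and 31.8 CPM in the control. For Il10 the log2 fold change was -0.60 ± 0.11 (edgeR adjusted p = 0.000251). Here both agonists lay below the control, the TNFR2 agonist lowest. Leaving out any 1 of the 6 libraries left 4 to 6 cytokine genes called.

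The promoter window of Il9 is shown because Il9 had the largest difference of the called cytokine genes, and holds 1 match, beginning at base -54, in capitals.
Il9 (chr13:56482208-56482507, minus strand): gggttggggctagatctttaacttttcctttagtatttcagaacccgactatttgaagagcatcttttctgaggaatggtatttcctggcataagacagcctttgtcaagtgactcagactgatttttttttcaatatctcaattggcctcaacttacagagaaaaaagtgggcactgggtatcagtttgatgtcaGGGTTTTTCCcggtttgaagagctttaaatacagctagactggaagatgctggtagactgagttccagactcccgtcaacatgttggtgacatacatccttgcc

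The markers of conventional helper T cells are a list that holds Il2 and Il21 themselves. They summed to 599 to 612 CPM with the TNFR2 agonist and 539 to 562 CPM with the DR3 agonist. The sum was higher with the TNFR2 agonist, but its most abundant members, Tcf7 and Actn1, weigh most in it. Only 4 of the 15 fold changes were positive, and the median log2 fold change was -0.11. Of the 15 genes tested, Tcf7 and Actn1 were called higher and Il2 and Il21 lower. Among the others, Ifng stood at 7.82 to 10.9 CPM with the TNFR2 agonist and 8.75 to 13.5 CPM with the DR3 agonist, and Il4 was under 0.4 CPM in all 6 libraries. Of 17 genes of the type 2 helper lineage tested, 3 were called lower (Il9, Maf and Irf4) and none higher, and Gata3, its lineage transcription factor, differed by a log2 fold change of 0.051 ± 0.038 (edgeR adjusted p = 0.558).

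Of 10 chemokine genes tested (30% called, against 3.74% of all genes tested), 2 were called lower with the TNFR2 agonist and Ccl22 higher. Xcl1, which encodes the chemokine lymphotactin, had 2.69, 2.34 and 2.75 CPM with the TNFR2 agonist, 5.38, 5.51 and 5.60 CPM with the DR3 agonist and 3.53, 3.69 and 3.91 CPM in the control (log2 fold change -1.08 ± 0.17, edgeR adjusted p = 2.07e-05). The control lay between the agonists, with no overlap. Ccl3, an inflammatory chemokine, had 12.0, 9.04 and 6.92 CPM with the TNFR2 agonist and 13.6, 13.0 and 12.8 CPM with the DR3 agonist (log2 fold change -0.47 ± 0.12, edgeR adjusted p = 0.0118), and lost its call without TNFR2 replicate 2, TNFR2 replicate 3 or DR3 replicate 1 (adjusted p 0.0675 to 0.0912). Without any of those libraries, 1 chemokine gene was called lower.

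**Figure D2:**
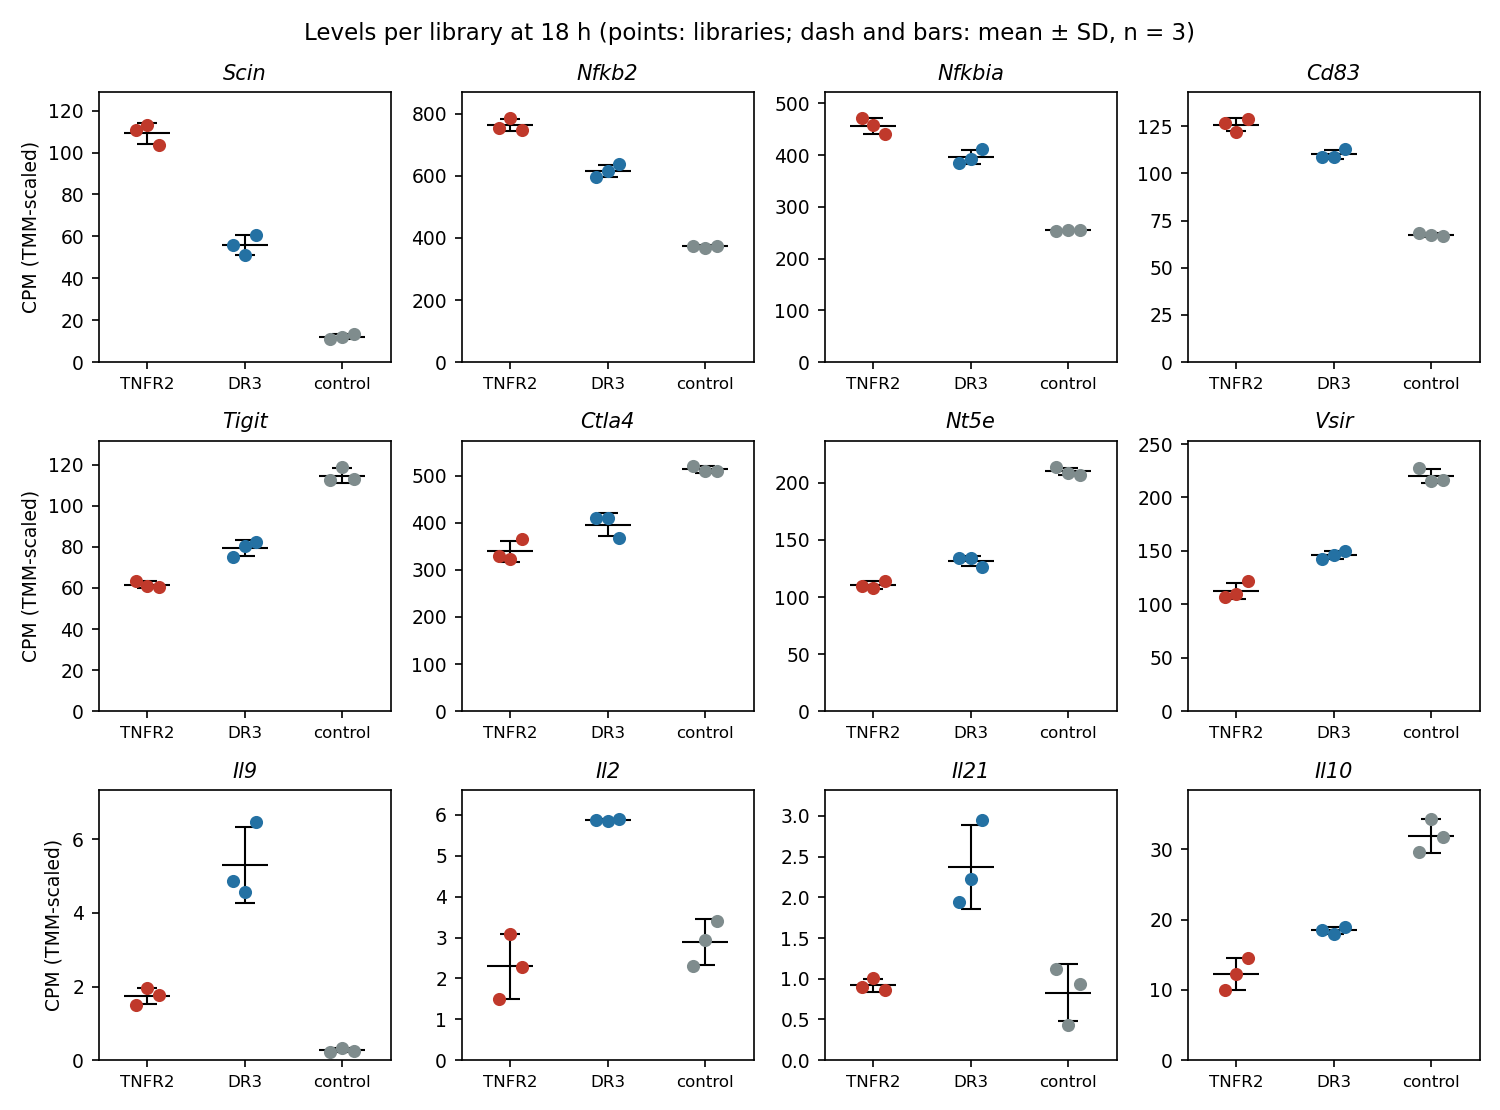
Level of 12 genes in each library at 18 h, in CPM scaled by TMM, for the TNFR2 agonist (red), the DR3 agonist (blue) and the control (grey), with the mean and SD of 3 libraries. The top row holds genes highest with the TNFR2 agonist, the middle row inhibitory receptors that are lowest with the TNFR2 agonist, and the bottom row cytokine genes that are higher with the DR3 agonist than with the TNFR2 agonist.

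Some inhibitory receptors and ligands were called lower with the TNFR2 agonist. Of 18 such genes tested, 7 were called lower (Tigit, Vsir, Nt5e, Pdcd1, Ctla4, Cd274 and Cd5) and none higher, with a median log2 fold change of -0.22, and 16 of 18 fold changes were negative. Each of the 7 kept its call when any 1 of the 6 libraries was left out. The fit of the 6 libraries alone called 5 members lower. Called members made up 38.9% of the list, against 3.74% of all genes tested. Tigit, a receptor that competes for CD155, had 63.4, 60.8 and 60.6 CPM with the TNFR2 agonist, 75.3, 80.6 and 82.4 CPM with the DR3 agonist and 112, 119 and 113 CPM in the control. For Tigit the log2 fold change was -0.36 ± 0.047 (edgeR adjusted p = 3.32e-07). Vsir, which encodes VISTA, had 107, 109.9 and 121 CPM with the TNFR2 agonist, 143, 146 and 150 CPM with the DR3 agonist and 228, 216 and 217 CPM in the control (log2 fold change -0.38 ± 0.045, edgeR adjusted p = 4.64e-08). In both genes the DR3 agonist lay between the TNFR2 agonist and the control, with no overlap. Nt5e, which encodes CD73, an enzyme that makes adenosine, had 110.0, 108 and 114 CPM with the TNFR2 agonist, 134, 134 and 127 CPM with the DR3 agonist and 214, 209 and 207 CPM in the control. For Nt5e the log2 fold change was -0.25 ± 0.042 (edgeR adjusted p = 4.69e-05). Pdcd1, which encodes PD-1, had 60.8, 58.2 and 58.3 CPM with the TNFR2 agonist, 67.7, 71.4 and 72.4 CPM with the DR3 agonist and 94.8, 94.1 and 95.5 CPM in the control (log2 fold change -0.25 ± 0.046, edgeR adjusted p = 0.000261). These groups too kept apart in that order. Ctla4, whose protein strips CD80 and CD86 from antigen-presenting cells, had 330.4, 322 and 365 CPM with the TNFR2 agonist, 409.6, 409.6 and 368 CPM with the DR3 agonist and 521, 509.7 and 509 CPM in the control. For Ctla4 the log2 fold change was -0.22 ± 0.042 (edgeR adjusted p = 0.000428). TNFR2 replicate 3 and DR3 replicate 3 were the closest libraries of the agonist groups, which did not overlap. Cd274, which encodes PD-L1, had 139, 132 and 148 CPM with the TNFR2 agonist, 158, 173 and 154 CPM with the DR3 agonist and 165, 169.6 and 165 CPM in the control (log2 fold change -0.21 ± 0.042, edgeR adjusted p = 0.000664), and here the DR3 agonist libraries overlapped the control.

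The core Treg signature held calls in both directions, with 26.9% called against 3.74% of all genes tested. Of 26 core Treg genes tested, 6 were called lower with the TNFR2 agonist (Ctla4, Tigit, Nt5e, Capg, Izumo1r and Dusp4) and 1, Cd83, higher, with a median log2 fold change of -0.04; 3 of the 6 are also in the list of inhibitory receptors. Capg, an actin-capping protein, had 203, 208 and 191 CPM with the TNFR2 agonist, 225, 238 and 252 CPM with the DR3 agonist and 288, 298 and 297 CPM in the control (log2 fold change -0.25 ± 0.038, edgeR adjusted p = 1.47e-05). Foxp3, the factor that defines the lineage, was not called, with 626, 662 and 640.4 CPM with the TNFR2 agonist, 585, 621 and 639 CPM with the DR3 agonist and 584, 579.5 and 582 CPM in the control (log2 fold change 0.064 ± 0.036, edgeR adjusted p = 0.383). The agonist groups overlap for Foxp3. Nor was Il2ra, which encodes CD25, called, with 3228, 3117 and 3265 CPM with the TNFR2 agonist and 3280.0, 3314 and 3213 CPM with the DR3 agonist. Dusp4 (log2 fold change -0.13 ± 0.035, edgeR adjusted p = 0.0188) lost its call without TNFR2 replicate 1, TNFR2 replicate 2, DR3 replicate 2 or DR3 replicate 3 (adjusted p 0.0592 to 0.0914). The count called higher was 2 without TNFR2 replicate 3 or DR3 replicate 3, and 3 without DR3 replicate 2.

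Of 27 genes of effector Tregs tested, 8 were called lower with the TNFR2 agonist and none higher, 6 fold changes were positive, and the median log2 fold change was -0.12. Besides Il10, Pdcd1 and Ebi3 these were Maf, Prdm1, Fgl2, Irf4 and Id2. The share called was 29.6%, against 3.74% of all genes tested. Maf, a transcription factor of Il10, had 54.8, 46.9 and 60.6 CPM with the TNFR2 agonist, 71.6, 74.0 and 66.9 CPM with the DR3 agonist and 86.5, 86.5 and 81.4 CPM in the control. For Maf the log2 fold change was -0.39 ± 0.072 (edgeR adjusted p = 0.000846). Prdm1, which encodes Blimp-1, had 24.6, 22.4 and 25.3 CPM with the TNFR2 agonist, 28.3, 30.3 and 29.3 CPM with the DR3 agonist and 35.5, 35.7 and 36.4 CPM in the control (log2 fold change -0.28 ± 0.060, edgeR adjusted p = 0.00192). Both were highest in the control and lowest with the TNFR2 agonist, with no overlap. Fgl2, a secreted suppressive protein, had 5.89, 4.99 and 6.23 CPM with the TNFR2 agonist, 7.95, 8.80 and 8.77 CPM with the DR3 agonist and 14.4, 14.0 and 15.8 CPM in the control. For Fgl2 the log2 fold change was -0.57 ± 0.12 (edgeR adjusted p = 0.00212). Irf4, a factor of effector differentiation, had 869.9, 861 and 933 CPM with the TNFR2 agonist, 989, 996 and 928 CPM with the DR3 agonist and 862, 890.0 and 871 CPM in the control (log2 fold change -0.13 ± 0.036, edgeR adjusted p = 0.0252). Its agonist groups overlap, and the call was lost without TNFR2 replicate 1, TNFR2 replicate 2, DR3 replicate 1 or DR3 replicate 2 (adjusted p 0.126 to 0.182). Id2 (log2 fold change -0.29 ± 0.076, edgeR adjusted p = 0.0198) lost its call without TNFR2 replicate 1, DR3 replicate 1 or DR3 replicate 2 (adjusted p 0.0965 to 0.117). Without DR3 replicate 1, 5 of the effector genes were called lower and 1 higher. DESeq2 also called 1 higher, as did edgeR without TNFR2 replicate 1 or TNFR2 replicate 3.

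The most significant falls under the TNFR2 agonist were spread over signalling and metabolic genes. Angptl2, a secreted angiopoietin-like protein, had 53.6, 58.9 and 54.7 CPM with the TNFR2 agonist, 80.8, 85.2 and 85.8 CPM with the DR3 agonist and 138, 127 and 137 CPM in the control. For Angptl2 the log2 fold change was -0.59 ± 0.046 (edgeR adjusted p = 4.4e-13). It had the smallest p among genes called lower. Irf8, an interferon regulatory factor, had 479.6, 496 and 472 CPM with the TNFR2 agonist, 604, 614 and 637 CPM with the DR3 agonist and 765, 791 and 788 CPM in the control (log2 fold change -0.36 ± 0.036, edgeR adjusted p = 7.91e-10). Ptpn22 and Ubash3b, phosphatases that damp T cell receptor signalling, had 53.9, 53.6 and 58.2 CPM and 37.0, 37.3 and 37.1 CPM with the TNFR2 agonist, against 74.2, 75.3 and 69.5 CPM and 51.3, 51.3 and 52.0 CPM with the DR3 agonist. In the control they stood at 129, 123 and 119.6 CPM and 75.9, 68.3 and 70.4 CPM, so the DR3 agonist lay between, and their log2 fold changes were -0.40 ± 0.046 (adjusted p = 1.41e-08) and -0.47 ± 0.051 (adjusted p = 3.76e-09, edgeR). Lrmp, an endoplasmic reticulum membrane protein (log2 fold change -0.41 ± 0.041), Lclat1, a cardiolipin-remodelling acyltransferase (-0.42 ± 0.040), Rgs16, a regulator of G protein signalling (-0.37 ± 0.040), and Acap1, a protein of membrane recycling (-0.33 ± 0.040), were called with edgeR adjusted p values of 7.91e-10, 3.07e-10, 3.76e-09 and 1.12e-07.

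A few genes were higher with the DR3 agonist than with both other groups. They are given because of this placing, which was noticed after the values were seen. Pdgfb, a growth factor gene, had 59.0, 64.2 and 61.0 CPM with the TNFR2 agonist, 74.5, 79.6 and 84.1 CPM with the DR3 agonist and 65.1, 68.9 and 68.6 CPM in the control. For Pdgfb the log2 fold change was -0.37 ± 0.050 (edgeR adjusted p = 9e-07). Against the shared control its log2 fold change was -0.14 with the TNFR2 agonist (edgeR adjusted p = 0.0271) and 0.23 with the DR3 agonist (edgeR adjusted p = 0.000365). Gng5, a G protein gamma subunit, had 44.1, 39.2 and 41.5 CPM with the TNFR2 agonist, 54.0, 48.5 and 46.6 CPM with the DR3 agonist and 40.5, 41.4 and 41.8 CPM in the control (log2 fold change -0.25 ± 0.057, edgeR adjusted p = 0.00357), a call lost without DR3 replicate 1 (adjusted p = 0.0952). Nkg7, a protein of cytotoxic granules, had 53.1, 49.9 and 45.4 CPM with the TNFR2 agonist, 58.8, 61.3 and 62.4 CPM with the DR3 agonist and 39.7, 40.5 and 37.2 CPM in the control (log2 fold change -0.29 ± 0.052, edgeR adjusted p = 0.000139), so that both agonists lay above the control and the DR3 agonist highest. The markers Ncr1 and Klrd1 of NK cells were at 0 in all 6 libraries. Klrb1c, Klra8 and Klrk1 were at 0 with the TNFR2 agonist and reached at most 0.0733 CPM with the DR3 agonist. Other markers listed with these were present. Eomes stood at 13.0 to 14.2 CPM with the TNFR2 agonist and 9.88 to 11.8 CPM with the DR3 agonist. In the control Eomes stood at 5.54 to 5.61 CPM. Cd8b1 stood at 5.74 to 6.36 CPM with the TNFR2 agonist and 5.65 to 7.63 CPM with the DR3 agonist.

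Homing receptors were called in both directions, 27.8% of their list against 3.74% of all genes tested. Of 18 chemokine receptor and homing genes tested, 2 were called higher with the TNFR2 agonist, the lymph node homing receptor Ccr7 and Cxcr4, and 3 lower. Ccr7 had 397, 388 and 404 CPM with the TNFR2 agonist, 327, 339.5 and 362 CPM with the DR3 agonist and 296, 302 and 292 CPM in the control (log2 fold change 0.21 ± 0.034, edgeR adjusted p = 2.4e-05). Cxcr4, the receptor for CXCL12, had 19.2, 18.1 and 19.6 CPM with the TNFR2 agonist, 14.4, 14.5 and 13.9 CPM with the DR3 agonist and 14.4, 15.1 and 15.3 CPM in the control (log2 fold change 0.41 ± 0.080, edgeR adjusted p = 0.000664), and here the DR3 agonist and control libraries overlapped. Cxcr6, a receptor of tissue-resident T cells, had 9.14, 9.04 and 10.2 CPM with the TNFR2 agonist, 14.4, 16.2 and 12.7 CPM with the DR3 agonist and 23.9, 25.4 and 25.8 CPM in the control (log2 fold change -0.62 ± 0.10, edgeR adjusted p = 5.85e-05), a fall with no overlap between groups. S1pr1, the receptor for exit from lymph nodes (log2 fold change -0.20 ± 0.054, edgeR adjusted p = 0.0198), lost its call without TNFR2 replicate 1, TNFR2 replicate 2, DR3 replicate 2 or DR3 replicate 3 (adjusted p 0.0598 to 0.0879). The count of 3 called lower was 1 without TNFR2 replicate 1 or without DR3 replicate 2.

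Genes of resting or naive T cells showed no single direction: of 24 tested, 4 were called higher (Ccr7, Tcf7, Lef1 and Klf3) and 5 lower (Gimap4, Gimap6, Foxp1, Bach2 and S1pr1). Together 37.5% were called, against 3.74% of all genes tested. Tcf7, which encodes TCF-1, had 249, 236 and 244 CPM with the TNFR2 agonist, 216, 222 and 216 CPM with the DR3 agonist and 221, 217 and 211 CPM in the control. For Tcf7 the log2 fold change was 0.16 ± 0.034 (edgeR adjusted p = 0.00255). The DR3 agonist and control libraries overlap there. Gimap4, a GTPase of immunity-associated proteins whose relatives lie beside it and may share reads, had 160.2, 163 and 166 CPM with the TNFR2 agonist, 212, 215 and 204 CPM with the DR3 agonist and 296, 291 and 285 CPM in the control (log2 fold change -0.37 ± 0.040, edgeR adjusted p = 5.08e-09). Bach2, a repressor that keeps T cells from effector fates, had 182, 179 and 197 CPM with the TNFR2 agonist, 209, 220.0 and 206 CPM with the DR3 agonist and 270.4, 269 and 267 CPM in the control (log2 fold change -0.19 ± 0.039, edgeR adjusted p = 0.00127), and Foxp1, a factor of quiescence, a log2 fold change of -0.26 ± 0.050 (edgeR adjusted p = 0.00108). Lef1 lost its call without TNFR2 replicate 3, DR3 replicate 2 or DR3 replicate 3 (adjusted p 0.0531 to 0.0731) and Klf3 without TNFR2 replicate 1, TNFR2 replicate 3, DR3 replicate 1 or DR3 replicate 3 (adjusted p 0.0903 to 0.218). The list had 2 genes called higher without TNFR2 replicate 3 or without DR3 replicate 3.

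Of 24 early genes of T cell receptor signalling tested, 3 were called lower with the TNFR2 agonist and 1 higher. In all 16.7% were called, against 3.74% of all genes tested. Egr2 had 65.4, 66.2 and 67.4 CPM with the TNFR2 agonist, 80.1, 78.7 and 77.8 CPM with the DR3 agonist and 102, 101 and 105 CPM in the control. For Egr2 the log2 fold change was -0.25 ± 0.044 (edgeR adjusted p = 0.000123). Dusp6, a phosphatase that ERK signalling induces, had 6.50, 7.90 and 7.38 CPM with the TNFR2 agonist, 10.3, 9.80 and 9.58 CPM with the DR3 agonist and 13.6, 14.3 and 13.1 CPM in the control (log2 fold change -0.46 ± 0.095, edgeR adjusted p = 0.00137). Both were lowest with the TNFR2 agonist and highest in the control, with no overlap between groups. Nfatc1 (log2 fold change -0.15 ± 0.039, edgeR adjusted p = 0.0134) lost its call without TNFR2 replicate 1, TNFR2 replicate 3, DR3 replicate 2 or DR3 replicate 3 (adjusted p 0.0655 to 0.0759). Jun, a subunit of AP-1, was the exception, with 129.6, 125 and 126 CPM with the TNFR2 agonist, 104, 102 and 109.8 CPM with the DR3 agonist and 62.0, 60.9 and 60.0 CPM in the control. For Jun the log2 fold change was 0.27 ± 0.047 (edgeR adjusted p = 0.000102). Without DR3 replicate 1, 5 genes of this list were called lower, and without TNFR2 replicate 3 or DR3 replicate 3, 2 were called higher.

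Among interferon and STAT genes the called differences were small. Of 35 interferon-stimulated genes tested, 4 (11.4%) were called higher, among them Gbp5, Gbp2 and Igtp, against 1.89% of all genes tested. None was called lower, and the median log2 fold change was 0.01. Gbp5, a guanylate-binding protein whose relatives are close copies that can share reads, had 320.1, 328 and 342 CPM with the TNFR2 agonist, 272, 286 and 274 CPM with the DR3 agonist and 205, 206 and 207 CPM in the control (log2 fold change 0.25 ± 0.033, edgeR adjusted p = 6.94e-07). Stat5a, which carries the IL-2 signal, had 541, 551 and 544 CPM with the TNFR2 agonist, 484, 489 and 503 CPM with the DR3 agonist and 379, 376 and 369 CPM in the control (log2 fold change 0.15 ± 0.034, edgeR adjusted p = 0.00358). For Gbp5 and Stat5a the groups did not overlap. Gbp2 lost its call without TNFR2 replicate 3, DR3 replicate 1 or DR3 replicate 2 (adjusted p 0.108 to 0.112) and Igtp without TNFR2 replicate 1, DR3 replicate 1 or DR3 replicate 2 (adjusted p 0.058 to 0.0984); 2 members were called without DR3 replicate 1 or DR3 replicate 2. The immunoglobulin heavy chain transcript Ighm was also called higher, with 390.5, 379 and 362 CPM with the TNFR2 agonist, 322, 316 and 332 CPM with the DR3 agonist and 310.5, 288 and 307 CPM in the control. Without TMM scaling, Ighm stood at 362 to 385 CPM with the TNFR2 agonist and 315 to 331 CPM with the DR3 agonist. It made up nearly all of the B cell marker sum, of 375 to 398 CPM and 329 to 343 CPM in that order. Ms4a1 stayed below 0.3 CPM and Cd79a below 0.5 CPM in these 6 libraries.

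Genes of growth and housekeeping programmes were called in some lists only. In edgeR 0 genes were called among 30 of MYC and ribosome biogenesis, 33 of nuclear oxidative phosphorylation and 25 of cholesterol synthesis, and 0 among 16 heat shock genes, 20 p53 targets and 17 genes of G1 cyclins and kinases. At an unadjusted p below 0.05 these lists held 3, 1, 5, 3, 4 and 5 genes in that order. DESeq2 called 1 heat shock gene higher, 1 gene of the G1 list lower and 0 genes in the other lists. Without TNFR2 replicate 3, edgeR called 2 cholesterol genes and 1 each of the MYC, heat shock, p53 and G1 lists higher, and 1 of the G1 list lower. Without DR3 replicate 3 it called 2 MYC genes and 1 each of the cholesterol, heat shock and p53 lists higher, and 2 of the G1 list lower. Of 32 genes of DNA replication and S phase, 4 (12.5%) were called higher (Fen1, Mcm7, Uhrf1 and Mcm3) and none lower. Their median log2 fold change was 0.07, with 28 of 32 positive. Of 30 genes of G2 and mitosis, Plk1 (3.33%) was called higher, with a median of 0.12 and 29 of 30 positive. Over all genes tested, 1.89% were called higher. These calls depend on single libraries. The S phase count was 0 without TNFR2 replicate 1, TNFR2 replicate 2 or DR3 replicate 2, 1 without DR3 replicate 1, 11 without TNFR2 replicate 3 and 6 without DR3 replicate 3. In the last of these fits 1 S phase gene was called lower. The mitosis count was 14 without TNFR2 replicate 3, 2 without DR3 replicate 1 and 0 without each of the other replicates. Mcm7, a subunit of the replicative helicase, had 415, 419 and 368 CPM with the TNFR2 agonist and 366, 354 and 376 CPM with the DR3 agonist, groups that overlap, and lost its call without TNFR2 replicate 1, TNFR2 replicate 2, DR3 replicate 1 or DR3 replicate 2 (adjusted p 0.0886 to 0.27).

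**Figure D3:**
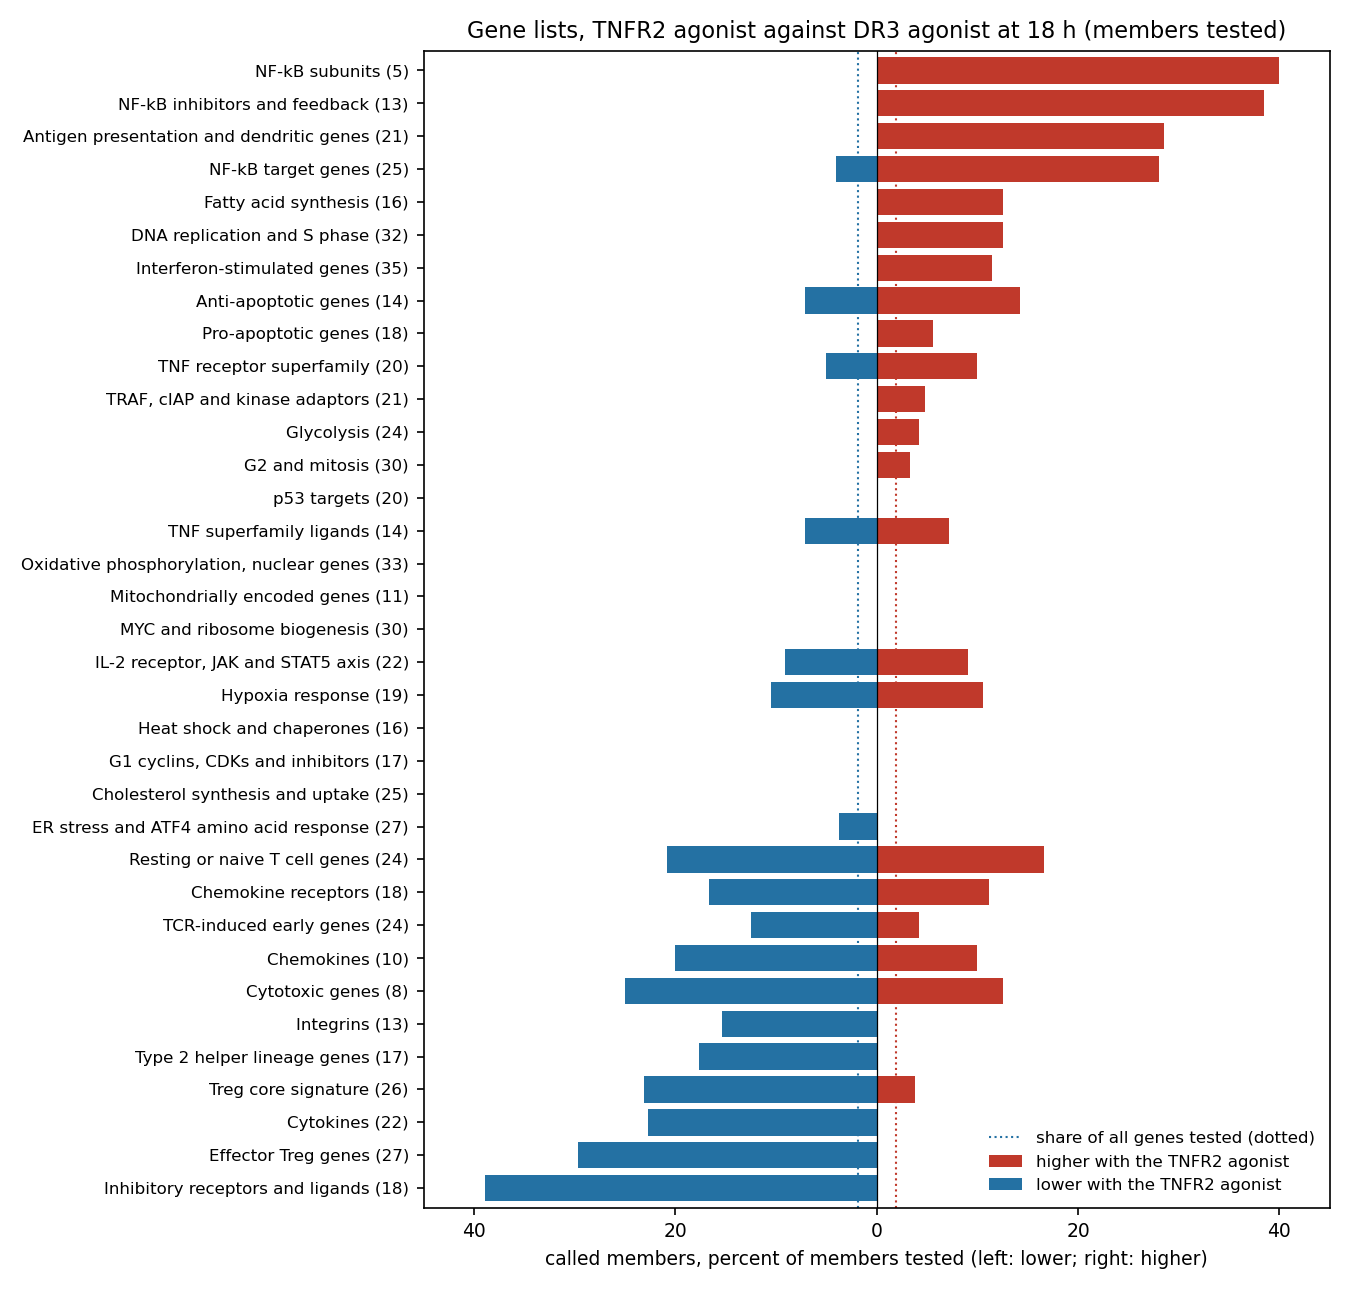
Share of the tested members of each gene list that were called higher (red, to the right) or lower (blue, to the left) with the TNFR2 agonist than with the DR3 agonist at 18 h, in percent, with the number of members tested in brackets. Dotted lines mark the shares over all genes tested, 1.89% and 1.85%. The NF-kB and antigen presentation lists reach to the right, and the inhibitory receptor, effector Treg and cytokine lists reach to the left.

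At 36 h the same agonists were compared in 6 other libraries, which share none with those at 18 h. There 509 genes (3.56%) were called, 330 (2.31%) higher and 179 (1.25%) lower with the TNFR2 agonist. Of the 271 genes called higher at 18 h, 239 (88.2%) had a positive fold change at 36 h, when 50.4% of all genes tested were positive, and 128 (47.2%) were called higher again. Of the 265 called lower at 18 h, 213 (80.4%) had a negative fold change at 36 h, 58 (21.9%) were called lower again and 3 were called higher. Scin had 119, 112 and 119.6 CPM with the TNFR2 agonist and 66.0, 67.8 and 66.0 CPM with the DR3 agonist at 36 h (log2 fold change 0.81 ± 0.051, edgeR adjusted p = 7.08e-16), again with no overlap. Nfkb2 had 625, 626 and 617 CPM with the TNFR2 agonist and 518, 518 and 510.4 CPM with the DR3 agonist (log2 fold change 0.27 ± 0.034, edgeR adjusted p = 1.86e-07). Tigit had 34.7, 34.4 and 34.2 CPM with the TNFR2 agonist and 44.7, 43.5 and 41.04 CPM with the DR3 agonist (log2 fold change -0.33 ± 0.052, edgeR adjusted p = 2.05e-05). In these 3 genes the groups again did not overlap. Il2 stayed lower with the TNFR2 agonist, at 7.44, 6.08 and 5.35 CPM against 11.1, 10.3 and 11.4 CPM with the DR3 agonist (log2 fold change -0.80 ± 0.13, edgeR adjusted p = 4.28e-05).

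**Figure D4:**
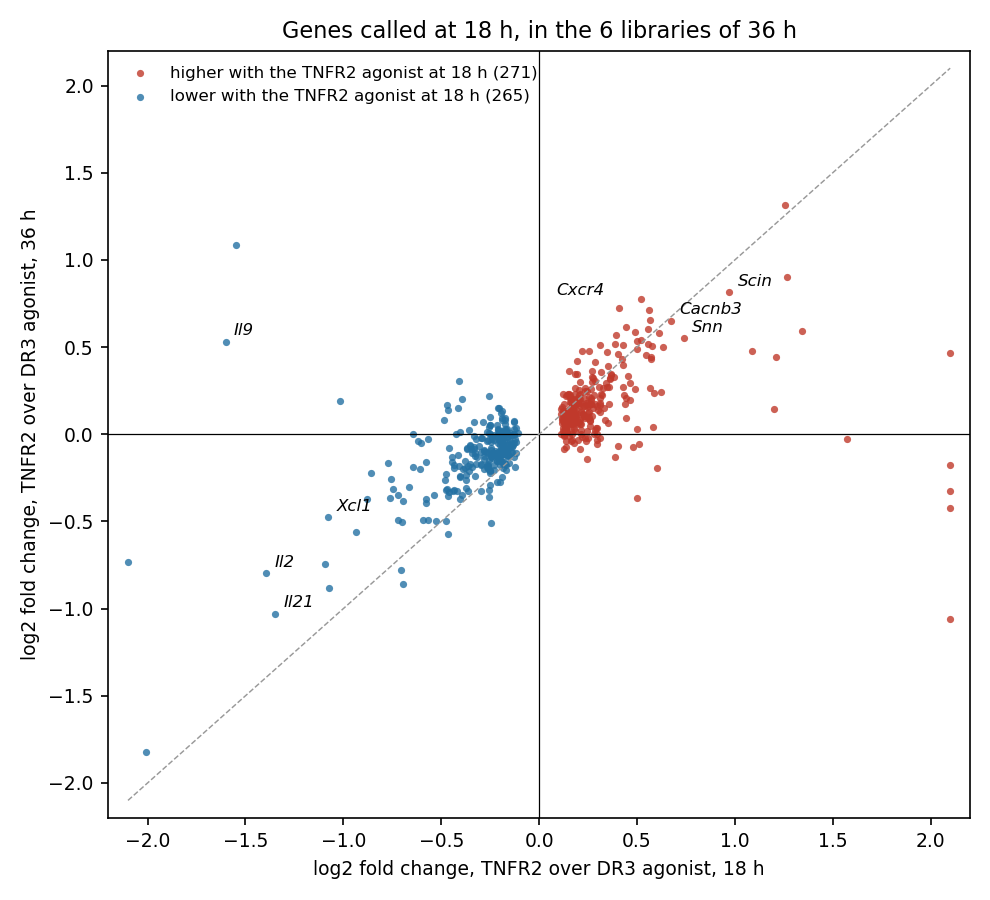
Log2 fold change of the TNFR2 agonist over the DR3 agonist at 36 h against the same at 18 h, for the 271 genes called higher (red) and the 265 called lower (blue) at 18 h, each from 3 against 3 libraries; points beyond the axis are drawn at its edge and the dashed line marks equal values. Most red points lie above zero and most blue points below zero at 36 h, and Il9 is a blue point that lies above zero.

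Some differences called at 18 h were not called at 36 h. Of the 7 inhibitory receptors called lower at 18 h, Pdcd1 had 75.8, 80.9 and 77.6 CPM with the TNFR2 agonist and 78.4, 79.5 and 76.2 CPM with the DR3 agonist at 36 h, in ranges that overlap. Cd274 had 109.9, 114 and 114 CPM with the TNFR2 agonist and 111, 113 and 114 CPM with the DR3 agonist, which also overlap. Ctla4 and Cd5 were not called at 36 h either, while Tigit, Nt5e and Vsir were called lower again. The Vsir call at 36 h was lost without TNFR2 replicate 2, TNFR2 replicate 3, DR3 replicate 1 or DR3 replicate 3 (edgeR adjusted p 0.0758 to 0.149). In the whole list, 4 of the 18 genes were called lower at 36 h. Il10 had 15.2, 17.8 and 13.5 CPM with the TNFR2 agonist and 16.0, 16.1 and 16.0 CPM with the DR3 agonist (log2 fold change -0.049 ± 0.099, edgeR adjusted p = 0.873). Of the effector Treg genes, 5 were called higher and 4 lower at 36 h. Whether an agonist difference itself changed between the times was tested directly: 54 genes (0.377%) were called, 42 (0.293%) with a more positive value at 36 h and 12 (0.0838%) with a more negative value. Of the genes called at 18 h, 7 of those higher and 20 of those lower were among these 54. Those genes were selected by their 18 h values, which this test also uses, so nothing is concluded from these counts. Neither Pdcd1 (adjusted p = 0.0556) nor Il10 (adjusted p = 0.0833) passed that test in edgeR.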

How the data were processed

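RNA from purified Tregs was extracted with a NucleoSpin RNA XS kit and amplified with SMART-Seq v4 Ultra Low Input reagents, which do not mark strand, per the labels' protocols. Reads were processed with FastQC, Trimmomatic, STAR 2.5.3a and RSEM 1.2.28 on mm10, per the submitters' processing notes. The authors deposited, per gene and library, expected counts (RSEM's estimated counts, which share reads among similar genes) and TPM (transcripts scaled to a sum of 1000000 per library). How deep a library is sets the counting error, and the kit gives no molecular identifiers.

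Before testing, the expected counts were rounded. Of 54087 genes listed, 53973 matched GENCODE mouse release M21 for coordinates. Genes with enough reads (edgeR's filterByExpr over the 11 groups) left 14313 tested. edgeR 4.0.16 in R 4.3.3 fitted a quasi-likelihood model to all 32 libraries with TMM scaling, so that all groups shared 1 estimate of spread (21 residual degrees of freedom, biological coefficient of variation 4.02%). Contrasts were TNFR2 agonist minus DR3 agonist at 18 h and at 36 h, the difference between them, and each agonist minus control at 18 h. P-values were adjusted over all genes tested by the Benjamini-Hochberg method, with a threshold of 0.05. No 2 of the replicate libraries were identical. In data simulated from these libraries, 74 of 99 genes changed by 0.5 and 85 of 99 changed by 1 on the log2 scale were recovered, with 8 false calls among 14128 genes. The simulation gave every gene the same spread, so these counts do not measure the error in the real data.

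Named genes were taken by rule: the 15 largest fold changes in each direction among called genes whose groups did not overlap and whose higher mean was 5 CPM or more, the 10 smallest p-values in each direction, up to 4 members with the smallest p per gene list, Foxp3 and the genes of both receptors and their ligands, and the 8 smallest p of the difference between times. Predicted genes were left out. Some genes the rule takes are not reported here. Bach2, Cd274, Dusp4, Ebi3, Gata3, Id2, Il2ra, Irf1, Klf3, Lef1, Otulin, Pdgfb, Rel, S1pr1 and Tnfaip3 fall outside that rule and were chosen after their values were seen. The comparison and the 41 gene lists were chosen with earlier results of these data known. Lists overlap in members. Alternatives were DESeq2 1.42.0, limma 3.58.1 (voom), DESeq2's size factors, other filters, a fit without robust estimation, a fit of only the libraries compared, a block for the replicate number, the levels of the ribosomal locus transcripts Gm26917 and Gm42418 as covariates (Gm42418 chosen after seeing the data), and leaving out each replicate.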

Additional observations from a re-analysis of the deposited data

Results flagged for a closer look

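For 8 genes, those with the smallest p in the test of the difference between times, the agonist difference at 36 h departed from that at 18 h. Each kept its call in 12 of 12 fits that left out a library.

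Il9 had a log2 fold change of -1.60 ± 0.20 at 18 h and 0.53 ± 0.19 at 36 h, a difference of 2.13 (edgeR adjusted p = 5.9e-06). Its levels at 36 h were 2.82, 3.15 and 3.79 CPM with the TNFR2 agonist and 2.11, 2.47 and 2.22 CPM with the DR3 agonist, and the 36 h difference alone was not called (edgeR adjusted p = 0.124). Ptpn22, a phosphatase of T cell receptor signalling, had 0.011 ± 0.043 at 36 h, where it was not called (edgeR adjusted p = 0.944), a difference of 0.42 (edgeR adjusted p = 7.06e-05). Gng5 had -0.25 ± 0.057 at 18 h and 0.22 ± 0.054 at 36 h, a difference of 0.48 (edgeR adjusted p = 0.000411). Its call at 18 h was lost without DR3 replicate 1 (adjusted p = 0.0952), and that at 36 h without TNFR2 replicate 1, DR3 replicate 2 or DR3 replicate 3 (adjusted p 0.0532 to 0.1).

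The other 5 genes were not called at 18 h and were higher with the TNFR2 agonist at 36 h. Penk, which encodes proenkephalin, had 103, 109 and 109 CPM with the TNFR2 agonist and 74.6, 78.7 and 80.0 CPM with the DR3 agonist at 36 h, a difference between the times of 0.46 (edgeR adjusted p = 5.9e-06). Tnfrsf9, the 4-1BB gene, had 562, 589 and 563 CPM with the TNFR2 agonist and 464, 459.6 and 482 CPM with the DR3 agonist, a difference between the times of 0.36 (edgeR adjusted p = 2.08e-05). The orphan nuclear receptor genes Nr4a1 and Nr4a2, early targets of T cell receptor signalling, had differences between the times of 0.38 (edgeR adjusted p = 2.08e-05) and 0.60 (edgeR adjusted p = 7.06e-05). Nrn1, which encodes neuritin, had one of 0.45 (edgeR adjusted p = 0.000188).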

How the results depend on the processing

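Of 114 called genes considered by name, 72 kept their call in all 6 fits that left out a library at 18 h. Leaving out a library gave 147 to 421 genes called higher and 145 to 458 called lower at 18 h. At 36 h it gave 197 to 291 higher and 66 to 212 lower, and for the difference between times 23 to 46 higher and 2 to 62 lower. The fit of only the libraries compared gave 98 higher and 85 lower at 18 h, 379 lower at 36 h, and 19 higher and 3 lower for the difference between times; 53 of 113 called named genes lost their call there at 18 h. With Gm26917 as a covariate 114 genes were lower at 36 h. For the difference between times the lower count, 12, was 26 with DESeq2, 71 with no filter, 4 with Gm26917 and 7 with Gm42418 as covariates. The cause of these shifts was not tested.

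Same-numbered libraries of the agonist groups at 18 h correlated at -0.045, -0.052 and -0.101 in their deviations from the group mean. With 3 libraries a group these deviations cancel out within each group, so the values cannot tell whether the numbers pair libraries. The replicate block left 231 genes higher and 225 lower at 18 h, and 5 lower for the difference between times.

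Signs turned for some uncalled genes when a library was left out. Over all the alternatives at 18 h, Rel ranged from -0.045 to 0.048, Tnfaip3 from -0.014 to 0.071 and Tnfrsf25 from -0.077 to 0.054. Tnfsf15 ranged from -0.044 to 0.29 and Penk from -0.047 to 0.031. Rel also turned to -0.0030 with Gm26917, and Penk to -0.0026 in the fit of only the libraries compared. With 3 libraries a group, genes under 5 CPM rest on few reads: 14 of the 271 called higher and 19 of the 265 called lower.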
